A study of Mus musculus with 6 samples.

Results

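The comparison set cardiomyocytes cultured with the secretome of macrophages sorted as negative for Ccrl2 (Ccrl2-) against cardiomyocytes cultured with phosphate-buffered saline (PBS). It rests on 2 of the 6 arrays of the series, 1 on each side. All genes named by the platform's probe annotation were considered, 19505 in all. The 10054 genes whose higher value on the 2 arrays reached 6.55, the median of all named values and the floor used here, were described.

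The 6 groups of mouse heart cells had 1 Affymetrix array each. Cardiomyocytes (CM) or cardiac fibroblasts (CF) were held for 48 h with Ccrl2- secretome, with secretome of macrophages sorted as positive for Ccrl2 (Ccrl2+), or with PBS, which the titles name Sham. The mice were of the C57BL/6N strain at 15 to 16 weeks of age. The macrophages came from a pool of 6 hearts of wild-type mice, sorted 1 week after transverse aortic constriction (TAC), an operation that overloads the left ventricle with pressure. The labels leave several points unsettled. Their protocols speak of co-culture with the macrophages themselves, the source labels of the secretome, and a description of cardiac macrophages as the profiled cells. The source labels were followed. No array of medium conditioned by another cell type was used here, so the secretome was set against PBS alone.

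Ccrl2 is a chemokine-receptor-like surface protein that binds chemerin and has no known signalling of its own. Cardiac macrophages release cytokines, interferons, growth factors and proteases that act on neighbouring cells. Primary cardiomyocyte cultures usually hold other heart cells too, chiefly fibroblasts, endothelial cells and macrophages, so a bulk value sums over all of them. Fewer cells of a type and less RNA per cell cannot be told apart in such values.

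Each value is a probe set summary on the log2 scale, where 1 unit equals 2-fold. With 1 array a side no difference has a replicate check, and no test was made. The precision is limited by the number of arrays. The Ccrl2- and PBS arrays had a Pearson correlation of 0.995 over all genes, and genes are no replicates. The median difference over the 10054 genes was -0.02 and the central 95% ran from -0.73 to 0.72. Probe sets whose identifiers mark them as negative controls, with targets not given in the sources used here, show how far single probe sets can scatter. Of the 2610 controls past the floor, 207 were higher and 255 lower by 2-fold or more, together 17.7%. Among the probe sets whose identifiers mark them as positive controls the share was 2.93%. Among named genes whose higher value lay between 6.55 and 8 it was 2.27%, so the negative controls do not give the rate for named genes. A single gene at 2-fold has no check against such scatter, so lists of genes and the values of the third cardiomyocyte array are given beside it.

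With Ccrl2- secretome 75 of the 10054 genes (0.746%) were higher by 2-fold or more and 79 (0.786%) were lower, 1.53% in all, so that 48.7% of these genes lay on the higher side. With each array centred on its negative controls the higher side held 62.9%, with 112 genes higher and 66 lower. Over all genes past the floor, as deposited, 47.1% lay above 0 and 51.7% below it. The largest differences on the higher side were those of Col3a1, Cenph, Fmo2, Col11a1 and Cd248. On the lower side they were those of Rsad2, Ifit1, Fosl1, Cd80 and Itga2b. Low values carried most of the scatter. The share at 2-fold in either direction was 2.32% for genes whose higher value lay between 8 and 10, and 0.106% for those of 14 and above. Just inside the threshold lay Cdc6 and Cks2 at 1.0 and Ptgds and Dnajc30 at -1.0, and just outside it Cenpp at 0.99 and Hspa1a, Ddx31 and Cisd2 at -0.99.

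**Figure D1:**
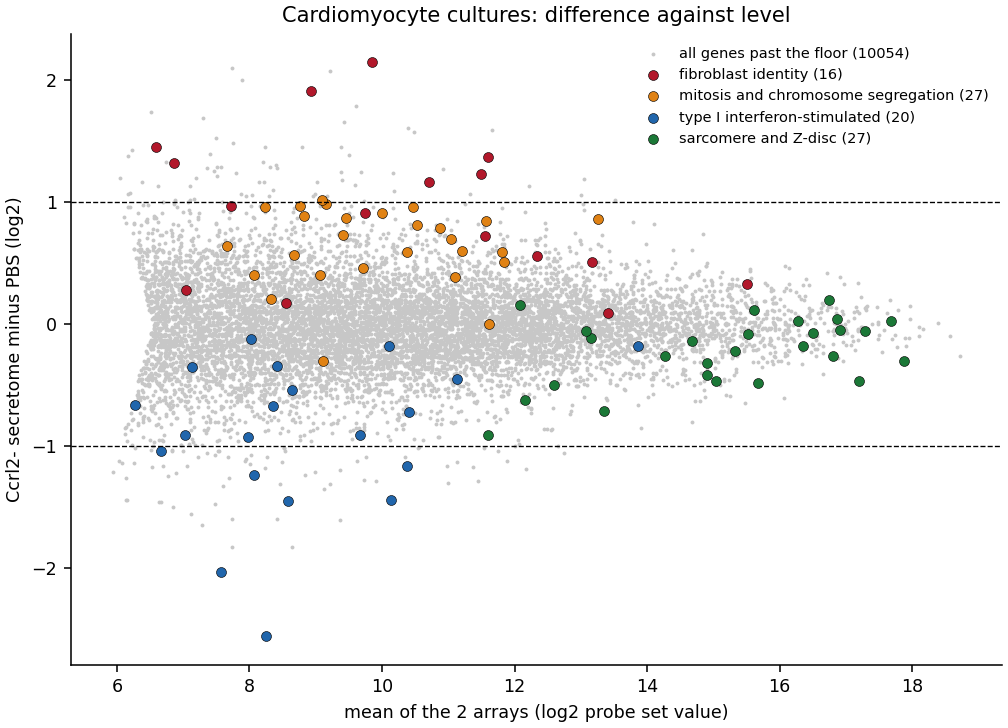
Difference between the cardiomyocyte arrays (Ccrl2- secretome minus PBS, log2) against the mean of the 2 arrays (log2 probe set value), 1 point a gene for the 10054 genes past the floor. Dashed lines mark 2-fold, and coloured points are members of 4 gene lists: the 16 fibroblast identity genes all lie above 0, the 20 interferon-stimulated genes all lie below 0, and the sarcomere genes lie at high levels within 2-fold.

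The labelled cell type was checked first. Of the sarcomere and Z-disc markers, which build the contractile apparatus, 27 of the 28 on the array were past the floor on all 3 cardiomyocyte arrays. Their summed level, on the log2 scale, was 20.76 with Ccrl2- secretome, 20.88 with Ccrl2+ secretome and 20.91 in PBS, against 17.39 to 18.39 on the 3 fibroblast arrays. Tnnt2, cardiac troponin T, lay at 17.73, 17.82 and 18.03 in that order, and Myh6, the alpha myosin heavy chain, at 17.26, 17.27 and 17.32. The cultures were therefore rich in cardiomyocyte transcripts with little difference among the arrays. Endothelial markers were present as well, with 16 past the floor and a summed level of 18.43 with Ccrl2- secretome, 18.52 with Ccrl2+ secretome and 18.5 in PBS. The endothelial adhesion gene Pecam1 lay at 14.08, 14.11 and 13.87. Macrophage markers had summed levels of 15.0, 14.72 and 15.51. None of the 13 neutrophil or 5 B cell markers on the array was past the floor on any cardiomyocyte array.

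Fibroblast identity genes were the list with the highest median difference, 0.94, against -0.02 over all genes past the floor. All 16 members past the floor lay above 0, beside 47.1% of all genes, and 7 of them reached 2-fold, beside 0.746% of all genes. In PBS 14 of the 16 reached the floor. The others, Tcf21 and Dpep1, were counted only through their Ccrl2- value and could only lie above 0. Both are among the 7, and neither reached 2-fold when counted from the floor. Col3a1, a fibrillar collagen chain, had a value of 10.93 with Ccrl2- secretome, 9.77 with Ccrl2+ secretome and 8.78 in PBS, a difference of 2.15 or 4.44-fold, the largest of the higher genes named here. The array with Ccrl2- secretome was the highest and the PBS array the lowest of the 3. Cd248, the stromal surface protein endosialin, followed the same order at 9.89, 8.88 and 7.98. So did Col1a2, a chain of type I collagen, at 12.28, 11.58 and 10.91. Thy1, a surface glycoprotein of fibroblasts and other cells, lay at 12.11, 11.31 and 10.88.

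Tcf21, which directs the cardiac fibroblast fate, was below the floor in PBS, with 7.52, 7.03 and 6.2 in the same order, and was higher with Ccrl2- secretome by at least 0.97. Dpep1, a membrane dipeptidase, was higher by at least 0.77 (7.32, 6.96 and 5.87). Not every member followed this order. Col1a1, the other chain of type I collagen, reached 11.3 with Ccrl2- secretome but 10.07 with Ccrl2+ secretome, near the 10.13 of PBS. Mfap5, a microfibril protein, also had its lowest value with Ccrl2+ secretome (8.63, 8.35 and 8.46), and Lum, the proteoglycan lumican, lay equally high on both secretome arrays (10.2, 10.21 and 9.29). At the small end was Fbln2, a matrix fibulin (13.46, 13.43 and 13.37). Dcn, the proteoglycan decorin, lay at 15.67, 15.45 and 15.34. The summed level of the list was 16.63 with Ccrl2- secretome, 16.32 with Ccrl2+ secretome and 16.16 in PBS, while the fibroblast arrays had 19.38 to 19.69. Pi16 was the 1 member on the array that was not past the floor. These genes mark a cell type that a cardiomyocyte culture can hold, and the part of culture composition in the differences was not tested.

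**Figure D2:**
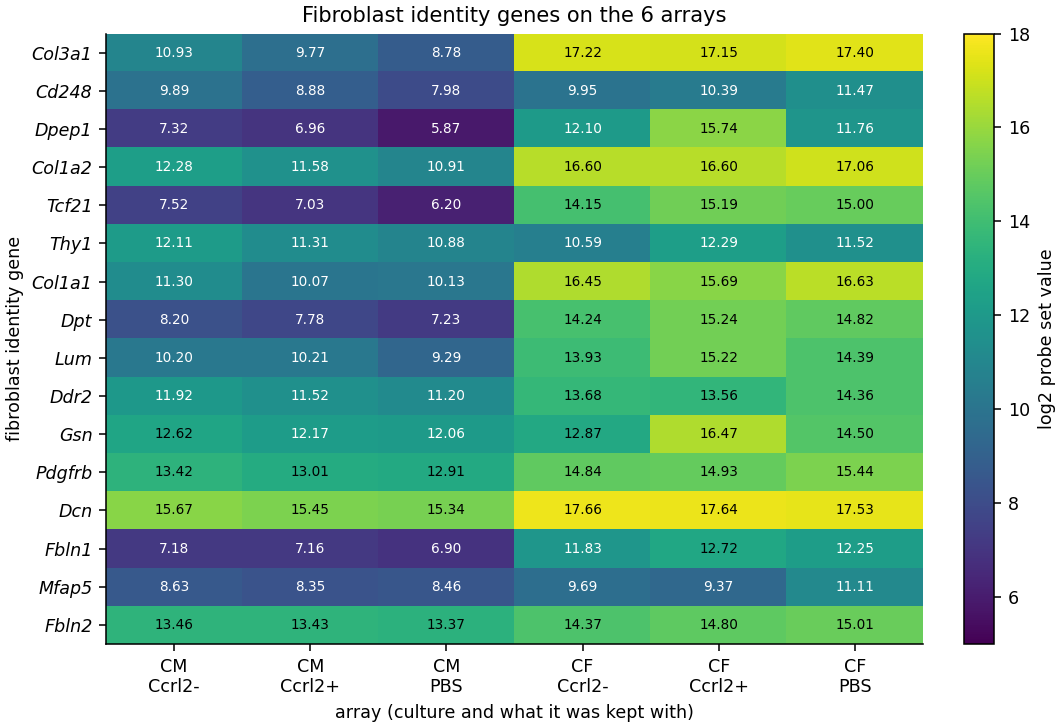
Level (log2 probe set value, printed in each cell and coloured) of the 16 fibroblast identity genes past the floor on all 6 arrays, cardiomyocyte (CM) cultures left and fibroblast (CF) cultures right. In the CM columns most genes are highest with Ccrl2- secretome and lowest in PBS, and nearly all lie below their CF values.

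Other lists of mesenchymal genes lay on the same side. Collagen chain genes had a median of 0.59. Among the 16 past the floor, 15 reached the floor in PBS too. Of the 16 past the floor 6 reached 2-fold on the higher side, beside 0.746% of all genes, and 0 on the lower, beside 0.786%. Besides the chains above these were Col11a1 (8.89 with Ccrl2- secretome, 7.7 with Ccrl2+ secretome and 6.89 in PBS), Col6a3 (10.31, 9.63 and 9.06) and Col5a1 (7.68, 7.51 and 6.65). Some basement membrane chains differed little, with Col4a1 at 13.26, 13.19 and 13.16 and Col18a1 at 12.1, 12.23 and 12.11. Others differed more, Col4a3 by 0.27 and Col15a1 by 0.59. The 6 chains at 2-fold were fibril-forming chains and Col6a3, a chain of microfibrils. Outside the lists, P4ha3, a subunit of collagen prolyl 4-hydroxylase, lay at 8.57, 8.19 and 7.51, and Mrc2, a receptor that takes up collagen, at 10.79, 10.35 and 9.55.

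The median of matrix proteoglycan and hyaluronan genes was 0.42, and 2 of 20 were higher by 2-fold, beside 0.746% of all genes. In PBS 17 of the 20 reached the floor, so the others, Has2 among them, could only lie above 0. Gpc3, a cell-surface heparan sulfate proteoglycan, lay at 9.52 with Ccrl2- secretome, 8.55 with Ccrl2+ secretome and 8.07 in PBS. Has2, a hyaluronan synthase, was near the floor at 6.94, 6.21 and 5.51, higher by at least 0.39. Among matrix glycoproteins and cross-linking enzymes 0 of 25 reached 2-fold and the median was 0.35. The largest differences of that list were those of Loxl3 (12.86, 12.54 and 12.08), the elastin gene Eln (11.07, 10.2 and 10.3) and the lysyl oxidase gene Lox (15.21, 14.62 and 14.47). Fn1, which encodes fibronectin, lay at 16.09, 16.06 and 16.09. Genes of fibroblast activation and the transforming growth factor beta response had a median of 0.0 over 17 members, and none was at 2-fold in either direction.

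The median of epicardial and mesothelial markers was 0.77. All 8 members past the floor lay above 0, beside 47.1% of all genes, and 2 were higher by 2-fold, beside 0.746%. In PBS 7 of the 8 reached the floor. Lrrn4, a leucine-rich repeat protein of mesothelium, lay at 11.27 with Ccrl2- secretome, 10.42 with Ccrl2+ secretome and 9.69 in PBS. Bnc1, the transcription factor basonuclin, was higher by at least 0.63 (7.18, 6.64 and 6.05). Upk3b, a uroplakin of mesothelium, lay at 10.35, 9.48 and 9.39. Wt1, the best known epicardial transcription factor, was on the array but not past the floor, as were Krt19, Aldh1a2 and Dmkn. The summed level of the list was 14.49, 14.03 and 13.89. Endothelial markers, in contrast, had 8 of 16 members above 0 and a median of 0.0. Among smooth muscle and myofibroblast contractile genes, with a median of 0.28, 1 of 14 was higher by 2-fold, beside 0.746% of all genes. That gene was Mylk, the myosin light chain kinase (8.22, 7.6 and 6.93). Pericyte markers had a median of 0.39, and 5 of the 6 past the floor lay above 0, beside 47.1% of all genes. Only Rgs5, a regulator of G protein signalling, was higher by 2-fold (8.41, 7.44 and 7.17), 1 of 6 beside 0.746% of all genes. Abcc9 and Mcam differed by -0.01 and 0.04.

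The arrays outside the comparison showed where the genes at 2-fold are usually high. On the arrays with Ccrl2+ secretome, 51 of the 75 higher genes (68.0%) were lower by 2-fold in cardiomyocyte than in fibroblast culture, with a median of -2.45. Over all genes past the floor that share was 11.1% and the median 0.1. Of the 79 lower genes, 45 (57.0%) were higher by 2-fold in cardiomyocyte than in fibroblast culture, with a median of 1.24, against 18.3% of all genes. The higher genes were thus mostly higher in fibroblast culture, and the lower genes mostly higher in cardiomyocyte culture. Both are whole cultures, and the cardiomyocyte culture also held endothelial and macrophage transcripts, so this assigns no gene to a cell type. This look-up was chosen after the data were seen, and the part of culture composition in it was not tested.

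**Figure D3:**
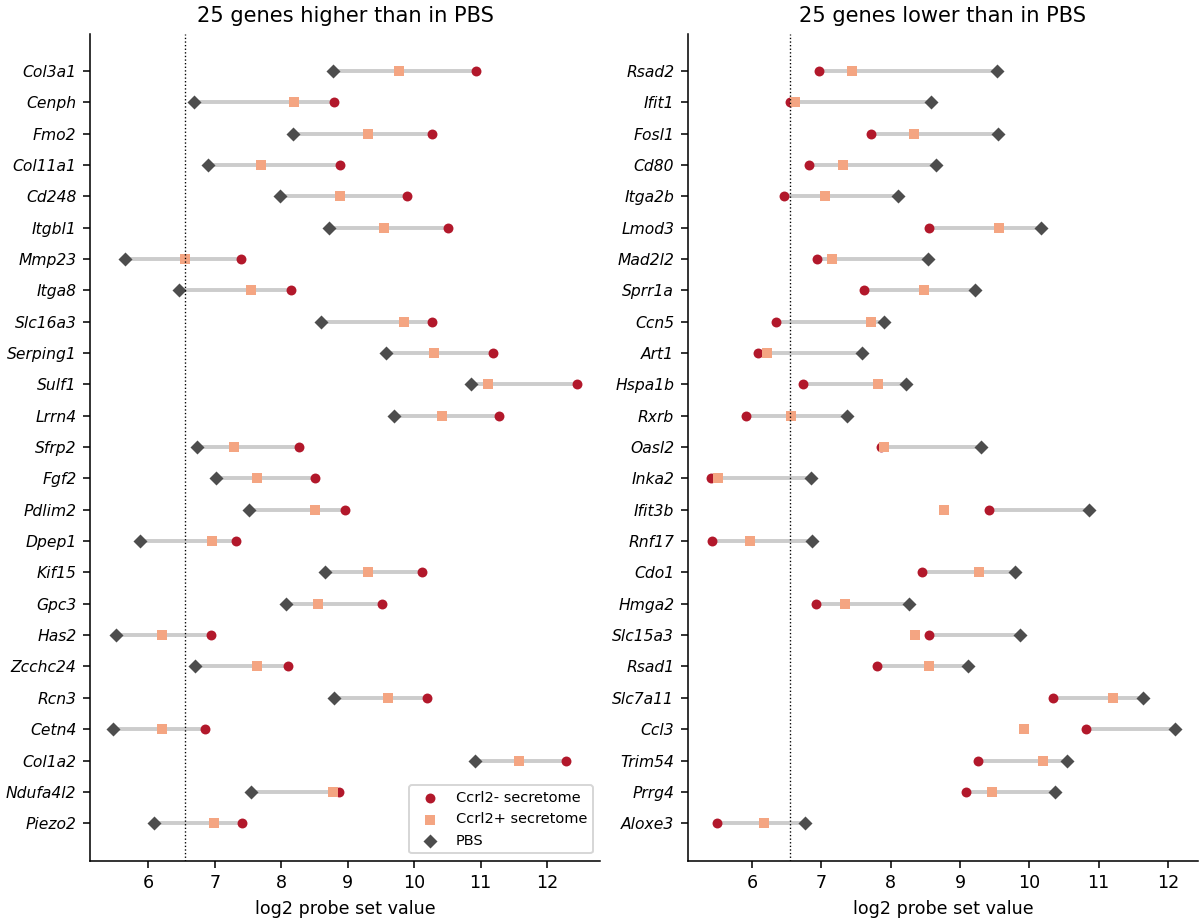
Level (log2 probe set value) of the 25 genes with the largest difference in each direction on the 3 cardiomyocyte arrays: circles Ccrl2- secretome, squares Ccrl2+ secretome, diamonds PBS. The dotted line is the floor of 6.55, and in most genes the square lies between the circle and the diamond.

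Genes of cell division were higher by small amounts in nearly every member. Of 27 mitosis and chromosome segregation genes, 25 lay above 0 and 1 below, beside 47.1% and 51.7% of all genes. Their median was 0.7. At 1.5-fold 18 were higher and 0 lower, beside 4.63% and 4.6% of all genes. At 2-fold 1 was higher, beside 0.746%. Top2a, the DNA topoisomerase of chromosome condensation, lay at 9.6 with Ccrl2- secretome, 9.25 with Ccrl2+ secretome and 8.58 in PBS. Mki67, the proliferation marker Ki-67, lay at 13.69, 13.37 and 12.83, and Cdk1, the mitotic kinase, at 9.27, 9.09 and 8.38. The Ccrl2+ array lay between the other two in all 3. Aurkb, a kinase of the chromosomal passenger complex, was the exception of the list at 8.96, 9.51 and 9.26.

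DNA replication genes had a median of 0.64. Of 21 members 20 lay above 0, beside 47.1% of all genes, and 13 were higher by 1.5-fold, beside 4.63%. In PBS 19 of the 21 reached the floor, so the others were counted only through Ccrl2- secretome and could only lie above 0. Cdc6, which loads the replicative helicase, lay at 8.09, 7.95 and 7.09. Rrm1 and Rrm2, the subunits of ribonucleotide reductase, lay at 13.29, 12.98 and 12.54 and at 12.15, 11.69 and 11.41. Outside the lists, the kinetochore gene Cenph had 8.79, 8.19 and 6.69, a difference of 2.1. Kif15, a spindle motor, had 10.11, 9.31 and 8.66. Among cell cycle regulators, Cdkn1a, which encodes the kinase inhibitor p21, was on the lower side at 15.76, 15.93 and 16.37. The summed fibroblast identity level given above was in the same order over the 3 arrays as most of these genes. Which cells of the culture carried the cell division transcripts was not tested.

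Interferon-stimulated genes were the list with the lowest median, -0.81. All 20 members past the floor lay below 0, beside 51.7% of all genes. With Ccrl2- secretome 18 of the 20 reached the floor, so the others were counted only through PBS and could only lie below 0. On the lower side 7 reached 2-fold, beside 0.786% of all genes, and 13 reached 1.5-fold, beside 4.6%. Rsad2, the antiviral radical enzyme viperin, had a value of 6.97 with Ccrl2- secretome, 7.45 with Ccrl2+ secretome and 9.53 in PBS, a difference of -2.56 and the largest in the comparison. Ifit1, an RNA-binding antiviral protein, lay at 6.55, 6.62 and 8.58, and Oasl2, of the oligoadenylate synthetase family, at 7.86, 7.9 and 9.31. In each the 2 secretome arrays were close together and the PBS array was high. The PBS array was also the highest for Usp18, the interferon receptor's feedback protease (7.45, 6.8 and 8.69), Ifit3 (9.8, 9.09 and 10.96) and Ifit3b (9.42, 8.77 and 10.86). There the Ccrl2+ array was the lowest, and the Ccrl2- array lay above it by 0.65, 0.71 and 0.65. Ifit3 and Ifit3b are near-identical copies whose probes can bind each other's transcripts, so they are not separate evidence.

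Mx2, an antiviral dynamin-like GTPase, was below the floor with Ccrl2- secretome (6.14, 6.45 and 7.18), and its difference counted from the floor was -0.63. Stat2, which carries the interferon signal to the nucleus, lay at 9.21, 9.19 and 10.12. The smallest members were Ifi35 (7.97, 7.81 and 8.09), Ifitm3 (13.78, 13.61 and 13.96) and Bst2 (10.02, 9.84 and 10.2). Isg15, Mx1, Oas1a, Oas2, Oas3, Oasl1, Irf7, Dhx58, Ifi27l2a and Zbp1 were on the array and not past the floor on either side, so the list as measured leaves out several of its classic members. Interferon-induced GTPases had a median of -0.42, with 9 of 10 below 0, beside 51.7% of all genes, and 0 at 2-fold. With Ccrl2- secretome 9 of the 10 reached the floor, so the other was counted only through PBS and could only lie below 0. Gbp3, a guanylate-binding protein, led the GTPases at 7.34, 7.09 and 8.3, and Irgm1 lay at 12.35, 11.95 and 12.4. With Ccrl2+ secretome, set against the same PBS array, the same 20 interferon-stimulated genes had a median of -0.94. Both differences rest on the 1 PBS array.

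Interferon response elements in the promoters of these genes were looked up, since the members moved together. The motif searched was the letters GAAA, any 2 bases and GAAA again, on either strand, in the 250 bases before the annotated start. Of the 7 genes lower by 2-fold, 5 had a promoter in the RefSeq table used (GRCm38.p6), and 4 of them held the motif. The share was 7 of 16 over the list members past the floor with a promoter (43.8%), 3.0% of all genes past the floor and 2.98% of all 32851 promoters in the table. The stretches below are shown because they hold the motif and belong to genes of the list that were lower by 2-fold. They are written in the direction of the gene, with each match in capitals. They lie at chr12:26456533-26456602 on the minus strand for Rsad2, and on the plus strand at chr19:34640755-34640843 for Ifit1, chr19:34607739-34607842 for Ifit3b and chr19:34583343-34583446 for Ifit3.
Rsad2: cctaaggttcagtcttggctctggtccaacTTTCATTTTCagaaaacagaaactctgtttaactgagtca
Ifit1: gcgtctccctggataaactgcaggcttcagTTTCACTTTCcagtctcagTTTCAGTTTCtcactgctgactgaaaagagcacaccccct
Ifit3b: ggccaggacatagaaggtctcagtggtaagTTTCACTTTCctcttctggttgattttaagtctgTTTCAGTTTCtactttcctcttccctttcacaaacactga
Ifit3: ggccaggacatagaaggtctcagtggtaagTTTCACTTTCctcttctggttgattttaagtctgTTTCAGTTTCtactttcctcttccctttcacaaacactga
The Rsad2 stretch holds 1 match, beginning 120 bases before the start, and the others hold 2 each. The Ifit3 and Ifit3b stretches are identical letter for letter. Oasl2 had a promoter in the table without the motif, and Mx2 and Usp18 had none there. A match is a description of these letters and not a measured binding site.

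**Figure D4:**
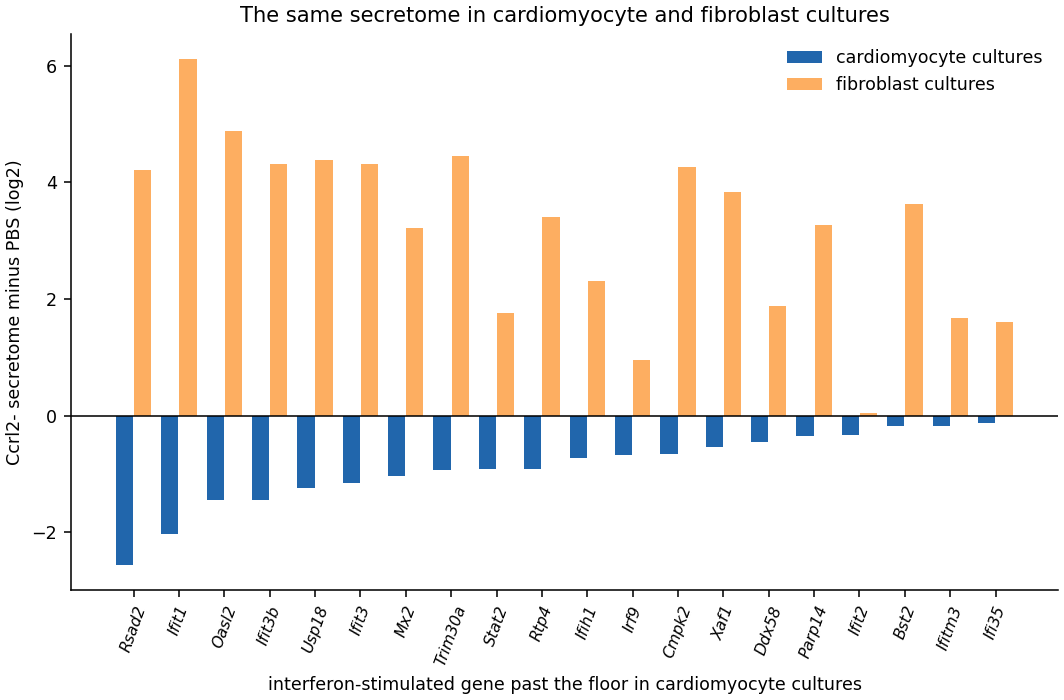
Difference between Ccrl2- secretome and PBS (log2) for the 20 interferon-stimulated genes past the floor in cardiomyocyte cultures, ordered by that difference, with bars for cardiomyocyte cultures left and fibroblast cultures right of each pair. All 20 lie below 0 in cardiomyocyte cultures and above 0 in fibroblast cultures, where Ifit2 is nearest to 0.

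In fibroblast culture with Ccrl2- secretome this list lay on the opposite side. The labels do not state whether both cultures received the same preparation of secretome. The 2 comparisons share no array. In fibroblasts the list had a median of 3.47 with Ccrl2- secretome. Of the 25 members past the floor there 23 reached 2-fold on the higher side, beside 6.18% of all genes (4.83% on the lower side). In fibroblast PBS 16 of the 25 reached the floor, so the others were counted only through Ccrl2- secretome and could only lie above 0. Ifit1 lay at 11.83 with Ccrl2- secretome and 5.71 in PBS in fibroblasts, and at 6.55 and 8.58 in cardiomyocytes. Slc15a3, a lysosomal peptide transporter, lay at 13.62 and 8.18 in fibroblasts and at 8.56 and 9.87 in cardiomyocytes. Ccl3, a chemokine for monocytes and lymphocytes, lay at 17.05 and 11.34 in fibroblasts and at 10.81 and 12.1 in cardiomyocytes. The difference between the cultures was not tested, as each has 1 array a side.

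Of the 75 genes higher in cardiomyocytes, 72 were past the floor in fibroblasts. There 5 were also higher, which is 6.67% of the cardiomyocyte and 0.804% of the fibroblast list, and 17 were lower (22.7% and 3.5%). Of the 79 lower genes, 50 were past the floor in fibroblasts, where 16 were higher (20.3% and 2.57%) and 7 lower (8.86% and 1.44%). Counted over the genes past the fibroblast floor, 6.94% of the higher genes were higher there and 23.6% lower, and 32.0% of the lower genes were higher there and 14% lower. Over all genes past that floor 6.18% were higher and 4.83% lower. The 5 higher in both were Slc16a3, the lactate exporter of glycolytic cells, Ndufa4l2, a hypoxia-induced mitochondrial protein, Has2, the oxysterol hydroxylase gene Cyp7b1 and the phosphodiesterase gene Pde1a. Slc16a3 lay at 10.26 with Ccrl2- secretome, 9.85 with Ccrl2+ secretome and 8.6 in PBS. Ndufa4l2 lay at 8.87, 8.78 and 7.54. Slc16a3 was the 1 of 27 glycolysis and hypoxia genes higher by 2-fold, beside 0.746% of all genes. The median of that list was 0.1. At 1.5-fold 5 of the 27 were higher, beside 4.63% of all genes, and 0 lower, beside 4.6%. Among the 5 were Egln3, an oxygen-sensing prolyl hydroxylase (12.29, 12.38 and 11.34), and Bnip3, a mitochondrial mitophagy receptor (10.26, 10.33 and 9.45). Lower in both were Ccn5, Tlr7, Tmem119, Slc40a1, Pld4, Myo18a and Mrgprf.

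The CC chemokine genes had a median of -0.52. Of the 8 past the floor 6 lay below 0, beside 51.7% of all genes, and 1 was lower by 2-fold, beside 0.786%. That gene was Ccl3, at 10.81 with Ccrl2- secretome, 9.92 with Ccrl2+ secretome and 12.1 in PBS. Ccl6 lay at 9.94, 9.09 and 10.68, and Ccl2, a monocyte chemokine, at 13.08, 12.86 and 13.09. Ccl9 was on the other side at 12.39, 10.88 and 12.03. Ccl4 and Ccl5 were not past the floor, and of 15 CXC chemokine genes only Cxcl12 and Cxcl16 were. Genes of the NF-kB subunits and feedback inhibitors lay at a median of -0.12, and 0 of 18 were at 2-fold. The acute phase gene Lcn2, a siderophore-binding protein, lay at 15.45, 15.92 and 15.76. In these 4 lists 0 genes were higher by 2-fold with Ccrl2- secretome.

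Macrophage markers and pattern recognition receptor genes had medians below 0. Of 19 macrophage markers past the floor, 17 lay below 0, beside 51.7% of all genes, 8 of them by 1.5-fold or more, beside 4.6%, and 0 by 2-fold. The median was -0.26. Csf1r, the receptor for macrophage colony-stimulating factor, lay at 9.97 with Ccrl2- secretome, 9.65 with Ccrl2+ secretome and 10.67 in PBS. C1qb, a chain of complement C1q, lay at 11.53, 10.9 and 12.25, and Mrc1, the mannose receptor CD206, at 12.23, 11.76 and 12.92. Adgre1 (8.52, 8.25 and 8.65) and Itgam (8.26, 7.82 and 8.07) differed less. The Ccrl2+ array was the lowest in each of these 5. The macrophage markers Cd14, Cx3cr1, Ccr2, Cd163, Timd4 and Folr2 were not past the floor. Of 16 pattern recognition receptor genes 13 lay below 0, beside 51.7% of all genes, and 2 were lower by 2-fold, beside 0.786%. Their median was -0.43. With Ccrl2- secretome 14 of the 16 reached the floor, so the others, Marco among them, could only lie below 0. Tlr7, a receptor for single-stranded RNA, was at 11.32, 10.96 and 12.44, and Marco, a scavenger receptor of macrophages, at 6.48, 6.66 and 7.52, a difference of -0.97 from the floor. On the other side were Nod1, a sensor of bacterial peptidoglycan (7.19, 6.88 and 6.69), Tlr2 (10.1, 10.09 and 10.03) and Ticam1 (8.21, 8.26 and 8.17). Since macrophages also express interferon-stimulated genes and chemokines, the lower summed macrophage level (15.0 with Ccrl2- secretome, 14.72 with Ccrl2+ secretome and 15.51 in PBS) stands beside the lower values of those lists, and its part in them was not tested.

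Stress-response lists had members on the lower side. AP-1 and immediate early genes had a median of -0.23. Of 22 members 7 were lower by 1.5-fold, beside 4.6% of all genes, and 2 by 2-fold, beside 0.786%. Fosl1, the AP-1 subunit FRA1, lay at 7.72 with Ccrl2- secretome, 8.34 with Ccrl2+ secretome and 9.55 in PBS, and Jun, its partner, at 10.04, 10.63 and 11.06. The Ccrl2+ array lay between the other two in both. Egr1 lay at 10.34, 10.76 and 11.11. On the other side of 0 were Maff (8.58, 8.29 and 8.02) and Fosl2 (9.65, 9.34 and 9.23). Fos, Fosb, Egr3, Nr4a3 and Klf2 were not past the floor.

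The letters of the AP-1 motif, TGANTCA, were found before the start of 13 of the 56 lower genes that had a promoter in the table (23.2%), and of 1 of 53 higher genes (1.89%), with 5.59% over genes past the floor and 6.75% over all promoters. The interferon motif was found in 10.7% of the lower and 3.77% of the higher genes. Shares for the NF-kB motif (GGG, any 5 bases and CC) were 56.6% of the higher, 51.8% of the lower and 66.2% of all genes past the floor. For the hypoxia motif ACGTG they were 18.9%, 23.2% and 25.7%, for the STAT motif TTCNNNGAA 3.77%, 3.57% and 7.15%, and for the D-box TTATGNAA 1.89%, 8.93% and 2.43%. All were sought on both strands, and 1 promoter could count for several motifs whose letters may overlap. These shares describe the windows only.

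Of 17 p53 targets, 16 lay below 0, beside 51.7% of all genes, and 1 was lower by 2-fold, beside 0.786%. Their median was -0.43. Eda2r, a TNF-family receptor, led them at 11.58 with Ccrl2- secretome, 12.08 with Ccrl2+ secretome and 12.77 in PBS. Mdm2, the p53 ubiquitin ligase, lay at 14.41, 14.59 and 15.04. Among antioxidant genes driven by the transcription factor NRF2 the median was -0.18. Of 25 members 2 were lower by 2-fold, beside 0.786% of all genes. These were Slc7a11, the cystine transporter (10.34, 11.21 and 11.64), and Gclc, the catalytic subunit of glutamate-cysteine ligase (11.23, 11.73 and 12.27). Hmox1, heme oxygenase 1, lay at 15.15, 15.37 and 15.8, and Txn1 on the other side at 16.24, 16.04 and 15.94. For heat shock genes the median was -0.34, and 1 of 17 was lower by 2-fold, beside 0.786% of all genes. That gene was Hspa1b, an inducible HSP70 (6.74, 7.82 and 8.22). Its near-identical copy Hspa1a lay at 6.69, 7.0 and 7.68, and probes of the pair may bind both. Hsp90aa1 lay at 15.97, 16.12 and 16.01. In each list most members lay within 1.5-fold.

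Contractile and metabolic genes of cardiomyocytes differed by small amounts. Of 27 sarcomere and Z-disc genes, 21 lay below 0, 0 were at 2-fold and the median was -0.18. The largest members were Synpo2l, a Z-disc protein (11.15 with Ccrl2- secretome, 11.47 with Ccrl2+ secretome and 12.06 in PBS), Ldb3, the Z-disc adaptor cypher (a difference of -0.71 against PBS), and Lmod2, a leiomodin of thin filaments (11.85, 12.66 and 12.47). Tpm1, Myl7 and Myl2 differed by 0.03, 0.03 and 0.04. Respiratory chain and ATP synthase genes had 29 of 32 below 0, a median of -0.14 and 0 at 2-fold, led by Cyc1 (11.58, 12.28 and 12.56). Over all genes past the floor 51.7% lay below 0, and the median was -0.02. The lower quartile of single genes was -0.22, which is not the same measure as a list median. Among genes whose higher value was 14 or above, the standard deviation over genes was 0.22. Calcium handling genes had a median of -0.13, and Atp2a2, the calcium pump SERCA2, lay at 17.43, 17.5 and 17.66.

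Some genes outside the sarcomere list reached 2-fold. Lmod3, another leiomodin, lay at 8.56 with Ccrl2- secretome, 9.56 with Ccrl2+ secretome and 10.17 in PBS. Trim54, a muscle RING-finger protein, lay at 9.26, 10.2 and 10.55, and Flnc, a filamin of the Z-disc, at 8.39, 9.09 and 9.6. Cpt1b, the muscle form of the enzyme that takes fatty acids into mitochondria, lay at 12.21, 13.07 and 13.27. It was the 1 of 27 fatty acid oxidation genes lower by 2-fold, beside 0.786% of all genes. Irx4, a ventricular transcription factor, was below the floor with Ccrl2- secretome (6.11, 7.12 and 7.27), a difference of -0.72 from the floor. In these genes the Ccrl2+ array lay closer to PBS than to the Ccrl2- array. The natriuretic peptide genes, which rise in hypertrophy, lay at 18.59, 18.91 and 18.85 for Nppa and at 14.9, 15.14 and 15.48 for Nppb.

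**Figure D5:**
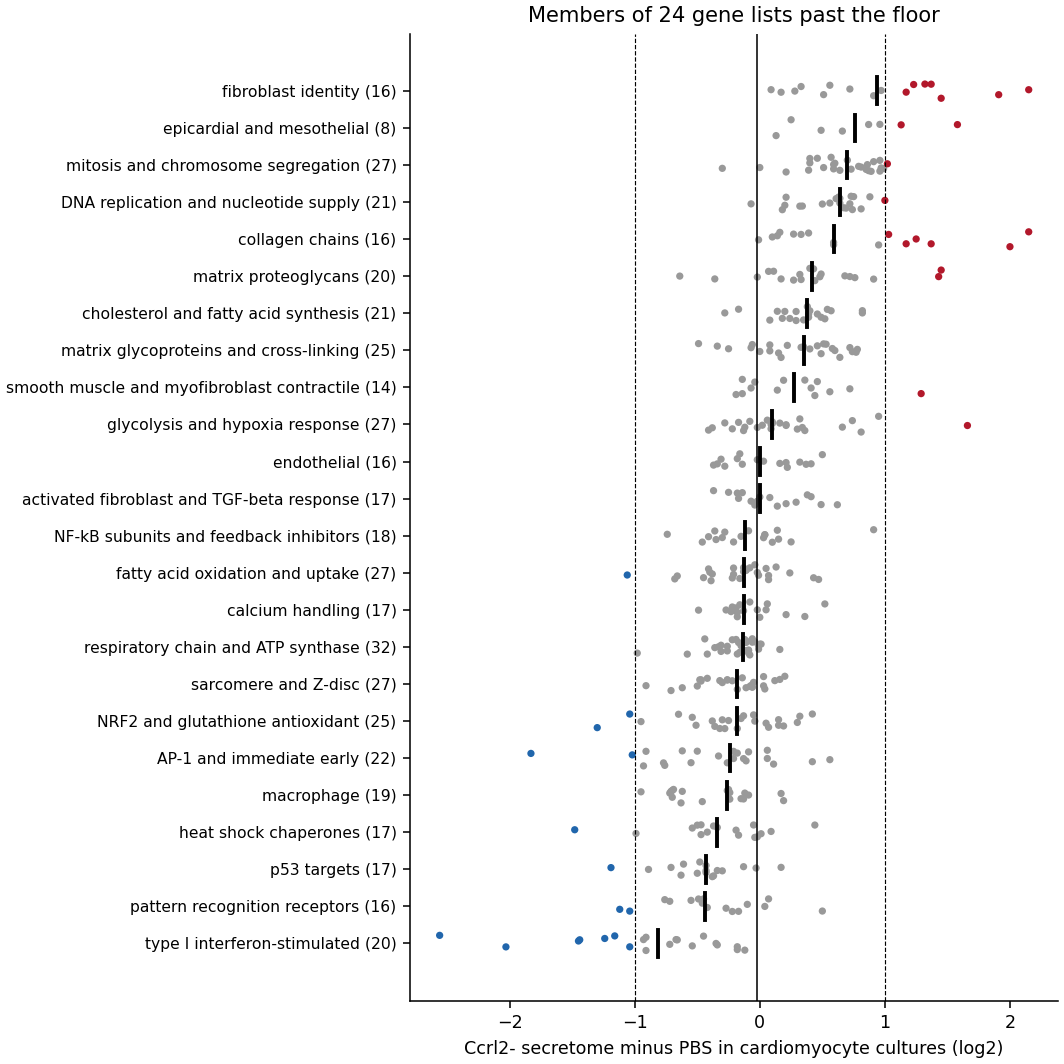
Difference (Ccrl2- secretome minus PBS, log2) of each member past the floor for 24 gene lists in cardiomyocyte cultures, with the number of members in brackets and the list median as a black bar. Points at 2-fold are coloured, the dashed lines mark 2-fold, and the solid line is the median of all genes, -0.02: fibroblast identity lies furthest right at 0.94 and the interferon-stimulated list furthest left at -0.81.

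Beside the Ccrl2+ secretome, which shares the PBS array, the comparison held more genes on the higher side. With Ccrl2+ secretome 21 of 10009 genes (0.21%) were higher than in PBS by 2-fold and 63 (0.629%) lower. The median of the fibroblast identity genes was 0.94 with Ccrl2- secretome and 0.38 with Ccrl2+ secretome, each set against PBS. That of mitosis genes was 0.7 with Ccrl2- secretome and 0.46 with Ccrl2+ secretome, and that of epicardial markers 0.77 and 0.24. Set directly against each other, 18 of 9995 genes (0.18%) were higher by 2-fold with Ccrl2- secretome than with Ccrl2+ secretome and 13 (0.13%) lower. The matrix genes Col3a1, Col11a1 and Sulf1, an enzyme that edits heparan sulfate, differed by 1.16, 1.19 and 1.34 between them. Sulf1 had 12.45 with Ccrl2- secretome, 11.11 with Ccrl2+ secretome and 10.86 in PBS.

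Ccrl2 itself lay at 7.45 with Ccrl2- secretome, 7.61 with Ccrl2+ secretome and 7.77 in PBS, so it did not separate the cultures. These values describe the cultured heart cells and do not check the sort of the macrophages. The chemerin receptor gene Cmklr1 lay at 6.69, 7.1 and 7.36, and the chemerin gene Rarres2 was below the floor on all 3 arrays.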

How the data were processed

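Biotinylated cRNA was made from 1 to 8 ug of total RNA, per the labels' protocols. Per the submitters' processing notes, the authors used Affymetrix Expression Console, and the values they deposited are log2 probe set summaries. The program's version and algorithm, the genome build and the annotation behind them were not stated in the sources used here. The log2 scale was read from the values, which run between 1.86 and 19.02. The sorted values of the arrays differed by 0.09 on average and by 0.3 at most, so any overall shift between arrays had been removed before deposit.

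The table held 28846 probe sets, of which 19572 had 1 gene symbol and 9274 none. All 19505 genes matched the RefSeq gene table of GRCm38.p6, and 0 symbols differed. For 55 symbols with several probe sets the one with the highest mean was used. The difference of 2 arrays was taken for each gene. Genes were counted if the higher value was at or above 6.55, the floor, and the difference was 2-fold or more. If the lower value was under the floor, the distance to the floor is given as a bound. No p-value was computed, because each group had 1 array. The negative control probe sets show how far single probe sets can scatter and do not give the rate for named genes.

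Genes named in the text were the 25 largest differences in each direction without predicted or clone symbols, members of 80 gene lists (any at 2-fold, otherwise the largest 6 and smallest 3), cell type markers, Ccrl2, Rarres2, and genes at 2-fold in both cultures. A few genes at 2-fold outside these (P4ha3, Mrc2, Flnc) were named after their values were seen. So were some list members outside the rule, such as Lum, Mki67, Maff, Fosl2, Txn1 and Sqle. The comparison, the lists and the rules were chosen with earlier results of these data known. Lists share some members. The alternatives tried were 1.5-fold and 3-fold as thresholds, omission of the floor, floors at the 75th percentile (10.14) and at the 95th percentile of the negative controls (10.25), quantile normalization, centring on the negative controls, removal of a loess trend (span 0.4), averaging over the probe sets of a gene, and values raised to the floor. The look-up of the counted genes on the Ccrl2+ arrays was added after the data were seen. Promoters run 250 bases before to 50 after each start, and the bases before it were searched. Counting was tested on simulated data. Python 3.11.15, numpy 2.4.6, pandas 2.3.3, statsmodels 0.14.6 and matplotlib 3.10.9 were used.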

Additional observations from a re-analysis of the deposited data

Results flagged for a closer look

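Several lists lay on opposite sides of 0 in the 2 cultures under the same contrast, Ccrl2- secretome over PBS, and in none was the difference between cultures tested. The labels do not state whether both cultures received the same preparation of secretome. Each median is over the members past the floor in that culture, so the genes can differ. The interferon-stimulated median was -0.81 in cardiomyocyte culture and 3.47 in fibroblast culture, and the CC chemokine median was -0.52 (8 genes) and 3.16 (12 genes). The fibroblast identity median was 0.94 in cardiomyocyte and -0.59 in fibroblast culture, and the epicardial median 0.77 and -0.59. Over the genes past the cardiomyocyte floor the fibroblast medians were 3.52, 2.52, -0.59 and -0.64 in that order. In fibroblast PBS 16 of 25 interferon-stimulated and 10 of 12 CC chemokine genes reached the floor, so the others could only lie above 0 there. Among the 75 single genes higher by 2-fold in cardiomyocytes, 72 were past the floor in fibroblasts and 17 were lower by 2-fold there (23.6% of the 72, beside 4.83% of all genes), such as Itga8, an integrin subunit (1.69 and -1.86), and Fgf2, a fibroblast growth factor (1.49 and -1.2). Among the 79 lower genes, 50 were past the floor in fibroblasts and 16 were higher by 2-fold there (32.0% of the 50, beside 6.18% of all genes), such as Rsad2 (-2.56 and 4.21) and Marco (-1.04 and 5.65).

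Probe sets outside the named genes also reached 2-fold. Of 2615 transcript clusters without a gene name here, 976 were past the floor, and 9 of them were higher and 8 lower with Ccrl2- secretome than in PBS, 1.74% together. The share was 1.53% among the named genes, 2.93% among the positive control probe sets and 17.7% among the negative control probe sets.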

How the results depend on the processing

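No paired analysis was possible because each group had 1 array. The 75 higher and 79 lower genes numbered 465 and 462 at 1.5-fold, 11 and 8 at 3-fold, and 141 and 131 without a floor. With the floor at the 75th percentile they were 22 and 22, and at the 95th percentile of the negative controls 19 and 20. By construction these settings test other numbers of genes or another size of difference. Under quantile normalization, loess, the mean of probe sets and raising to the floor the counts lay between 62 and 79 higher and 59 and 79 lower, and centring on the negative controls gave 112 and 66. For Ccrl2+ secretome over PBS in cardiomyocytes (21 and 63) the counts were 218 and 326 at 1.5-fold, 0 and 8 at 3-fold, 54 and 108 without a floor, 1 and 23 at the 75th percentile and 1 and 22 at the 95th percentile of the controls. For Ccrl2- over Ccrl2+ secretome (18 and 13) they were 239 and 232, 0 and 0, 53 and 30, 4 and 0, and 4 and 0 in the same order, and 9 and 7 when raised to the floor. For Ccrl2- secretome over PBS in fibroblasts (622 and 486) they were 1071 and 1490, 395 and 102, 713 and 563, 363 and 260, and 359 and 255.

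The list medians kept their side of 0 where they led the text: fibroblast identity ran between 0.72 and 1.0 over these settings, mitosis between 0.7 and 0.76, and the interferon-stimulated list between -0.81 and -0.58. The collagen median ran between 0.49 and 1.17, the macrophage median between -0.66 and -0.2, and the CC chemokine median between -0.52 and -0.15. Of the 78 lists with a member past the floor, 23 had a median on both sides of 0 over the settings. In 19 of these it lay near 0 as reported, between -0.3 and 0.22, within the SD over genes of 0.36. The other 4 turned round from beyond it: the median of the Wnt list, 0.45 and -0.06 with either higher floor, and of the interleukin-1 family, -0.37 and 0.49 with either higher floor. Without a floor so were those of T and NK cell markers (0.21 against -0.36) and adipocyte markers (0.02 against -0.51), each of which has 1 member past the floor. Recomputed differences of single genes moved by less than that SD in 5460 instances and by more in 45, and no gene at 2-fold turned round.

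With 1 array a side no value has an error. Of the 75 higher genes 15 and of the 79 lower genes 24 had a lower value below the floor, near the negative control median of 6.2 to 6.26, where a difference is a bound. Normalization before deposit hides a shift common to most genes.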

Other observations

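Genes of cholesterol and fatty acid synthesis lay on the higher side by small amounts in cardiomyocyte culture, with a median of 0.38 and 0 at 2-fold. Of 21 members 19 lay above 0, beside 47.1% of all genes. Scd1, the stearoyl-CoA desaturase, had 14.51 with Ccrl2- secretome, 13.86 with Ccrl2+ secretome and 13.69 in PBS, and Elovl6, a fatty acid elongase, had 11.86, 11.25 and 11.04. Sqle, squalene epoxidase, was on the other side at 10.73, 10.69 and 11.01. Wnt genes had a median of 0.45, with Sfrp2, a secreted Wnt modulator, at 8.26, 7.29 and 6.73 and the receptor gene Fzd7 at 9.6, 9.01 and 8.43. Fgf2 lay at 8.5, 7.64 and 7.01, and Spry1, a feedback inhibitor of growth factor signalling, at 8.1, 7.11 and 6.84. They were the 2 of 15 members of their list at 2-fold, beside 1.53% of all genes. The median of that list was -0.17.

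Further genes at 2-fold belonged to none of the groups described. Fmo2, a flavin monooxygenase, had 10.26 with Ccrl2- secretome, 9.31 with Ccrl2+ secretome and 8.18 in PBS, and Serping1, the C1 inhibitor of complement and contact activation, had 11.19, 10.29 and 9.58. On the lower side were Slc40a1, the iron exporter ferroportin (10.56, 10.85 and 11.69), Cish, a cytokine-induced STAT feedback inhibitor (11.03, 11.65 and 12.05), and Igfbp2, an insulin-like growth factor binding protein (10.4, 11.03 and 11.56). Cd80, a costimulatory ligand of antigen-presenting cells, had 6.82, 7.31 and 8.65. Sprr1a, a cornified envelope protein also induced in stressed heart muscle, had 7.61, 8.48 and 9.21. Ccn5, a matricellular protein, was below the floor with Ccrl2- secretome at 6.34, 7.72 and 7.9.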
